A study of Mus musculus with 7 samples.

Results

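The 9 genes described here encode the ion channels and calcium transporters that give the sinoatrial node its beat. They are the HCN channel genes Hcn2 and Hcn4, the L-type calcium channel pores Cacna1c and Cacna1d, the T-type pores Cacna1g and Cacna1h, and the calcium cycle genes Ryr2, Slc8a1 and Atp2a2. They were chosen by name, and all 9 were found among the 15967 genes of the deposited table. RNA was sequenced from the sinoatrial node (SAN), the pacemaker region of the right atrium, of Sv129 mice at 3 weeks after birth. In the Cre library the mice were Baf250af/f;Hcn4CreERT2 and were taken 6 days after tamoxifen, while the day-6 control library came from Baf250af/f mice with no Cre. Both libraries therefore carry floxed Baf250a (Arid1a), a subunit gene of the BAF chromatin remodelling complex. Deletion depends on a tamoxifen-activated Cre under control of Hcn4, which is itself one of the genes measured. Whether that insertion leaves its Hcn4 allele intact, how many mice were pooled, and whether the control mice were given tamoxifen is not given in the sources used here. Since each genotype has a single library (n = 1), nothing below was checked in replicates and genotype could not be tested. The 5 time-series libraries were not analysed here.

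Pacemaker cells depolarise slowly between beats through a coupled pair of mechanisms. In the membrane clock, HCN channels carry the inward funny current at negative voltages, T-type calcium channels open next, and L-type channels complete the upstroke. In the calcium clock, the ryanodine receptor Ryr2 releases calcium from the sarcoplasmic reticulum, the exchanger Slc8a1 expels it for sodium and so adds inward current, and the pump Atp2a2 (SERCA2) refills the store. Working atrial and ventricular muscle uses the same release, exchange and refilling genes for contraction, whereas Hcn4 and Cacna1d are typical of the node.

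Before any centring, the calcium cycle genes and 1 pore gene of each calcium channel type were higher in the Cre library, while the HCN genes and the other pore of each type did not reach a 2-fold difference. Expression is given as FPKM, which counts fragments per kilobase of transcript and per size of the library, and ratios are log2 of FPKM + 1. By these ratios 5 of the 9 genes reached 2-fold higher in the Cre library and 0 reached 2-fold lower. Over all 15965 genes with a completed comparison, 5.22% were higher and 8.95% were lower by that rule. The 5 were Slc8a1, Ryr2, Cacna1c, Atp2a2 and Cacna1g, and the 9 log2 ratios ran between 0.05 and 1.84 with a median of 1.06, against a median of -0.02 over all genes. With ratios centred on fibroblast, endothelial and adipocyte genes (tissue-list centring), 3 were at least 2-fold higher, beside 1.58% of all genes. Centred on 20 cardiomyocyte genes, 2 were, beside 0.802% of all genes. With the 10 longest transcripts of those 20 (1473 bases and more) as the centre, 0 were, beside 0.0689%. In the authors' deposited table none of the 9 was called significant, against 0.564% of all genes; 3 had an unadjusted p under 0.05, and the smallest q-value was 0.408.

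**Figure D1:**
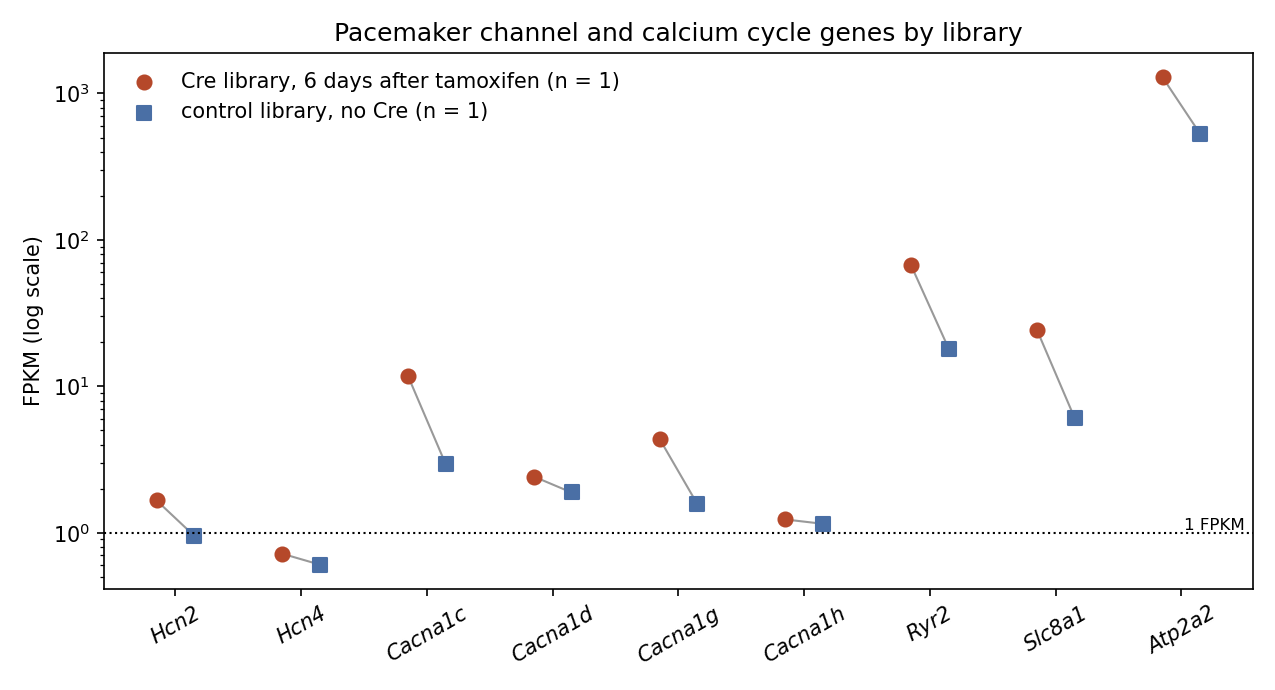
FPKM of each gene on a log scale, with 1 point for the Cre library (circle, left) and 1 for the control library (square, right) joined by a line. Slc8a1, Ryr2, Cacna1c, Atp2a2 and Cacna1g show the steep lines, Cacna1h (1.23 and 1.15 FPKM) is nearly level, and both points of Hcn4 lie under the dotted line at 1 FPKM.

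Windows around the transcription start (250 bases before it to 50 after it) are shown for the 3 genes with the highest ratios and for Hcn4, which had nearly equal values, so that genes with like ratios can be set beside one with a ratio near 0. They are RefSeq sequences of GRCm38.p6, read 5′ to 3′ on the gene's strand, and 6 of the 9 genes matched this table. Capitals mark matches to any of 6 motifs on either strand.
Hcn4, chr9:58822699-58822998, plus strand: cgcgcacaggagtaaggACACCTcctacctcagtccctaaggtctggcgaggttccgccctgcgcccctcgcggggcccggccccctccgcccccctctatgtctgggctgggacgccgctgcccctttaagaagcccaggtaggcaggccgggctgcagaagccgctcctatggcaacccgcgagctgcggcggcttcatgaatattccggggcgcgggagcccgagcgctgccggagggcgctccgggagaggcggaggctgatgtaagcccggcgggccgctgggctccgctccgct
Cacna1c, chr6:119108446-119108745, minus strand: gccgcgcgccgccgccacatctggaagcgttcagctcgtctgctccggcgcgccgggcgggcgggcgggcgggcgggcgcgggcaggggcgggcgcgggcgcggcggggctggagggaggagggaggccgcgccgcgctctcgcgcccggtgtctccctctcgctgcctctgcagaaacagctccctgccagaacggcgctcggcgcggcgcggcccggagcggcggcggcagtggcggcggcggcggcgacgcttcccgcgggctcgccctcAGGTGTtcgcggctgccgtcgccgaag
Ryr2, chr13:12106896-12107195, minus strand: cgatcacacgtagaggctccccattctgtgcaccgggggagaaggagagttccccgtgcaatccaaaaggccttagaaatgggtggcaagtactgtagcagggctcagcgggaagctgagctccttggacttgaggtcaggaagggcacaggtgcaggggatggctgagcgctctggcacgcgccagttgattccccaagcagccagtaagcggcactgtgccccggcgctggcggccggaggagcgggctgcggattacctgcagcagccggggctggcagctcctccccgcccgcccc
Slc8a1, chr17:81738338-81738637, minus strand: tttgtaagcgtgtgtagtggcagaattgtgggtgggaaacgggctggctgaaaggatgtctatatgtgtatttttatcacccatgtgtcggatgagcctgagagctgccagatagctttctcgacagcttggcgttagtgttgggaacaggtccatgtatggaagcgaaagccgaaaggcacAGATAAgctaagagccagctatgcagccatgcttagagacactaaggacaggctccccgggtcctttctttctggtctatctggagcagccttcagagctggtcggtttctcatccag
The core of the Nkx2-5 site was searched as AAGTG. The site of GATA factors was searched as AGATAA, that of T-box factors as AGGTGT, and the TATA box as TATAAA. The MEF2 box and the CArG box of serum response factor were searched by their usual patterns, and no motif overlapped another in the windows shown. Hcn4 held the T-box letters in reverse at base -233 from the start, Cacna1c held them at base 24, and Slc8a1 held the GATA letters at base -68. Of all 32851 promoter windows 13.7% held the T-box letters, 11.2% the GATA letters, 46.4% the Nkx2-5 core, 13.6% the TATA box letters, 3.19% a MEF2 box and 1.63% a CArG box. No match was found in the Ryr2 window, and none of the 4 windows held the Nkx2-5 core. No motif was shared by the 3 genes with the highest ratios. The GC content was 71.7% for Hcn4, 81.3% for Cacna1c, 65.3% for Ryr2 and 50.7% for Slc8a1. For Slc8a1 the start used lies 88779 bases upstream of the GENCODE start of the transcript named in the deposited table, and for Cacna1c, which has 3 starts, and Hcn4 it lies 306 and 463 bases upstream.

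The funny-current channel genes Hcn4 and Hcn2 were weak in both libraries. Hcn4 (NM_001081192, mm9 chromosome 9, 58671318 to 58708762), whose channel carries most of the funny current of the node, had 0.719 FPKM in the Cre library and 0.605 FPKM in the control library. Its log2 ratio of 0.10 became -0.68 with cardiomyocyte-list centring and -0.41 with tissue-list centring. Hcn2 (NM_008226, mm9 chromosome 10, 79179378 to 79198853), a faster-opening member of the family, had 1.66 FPKM in the Cre library and 0.951 FPKM in the control library. Its log2 ratio of 0.45 turned to -0.33 with cardiomyocyte-list centring and to -0.06 with tissue-list centring. Hcn4 was therefore below 1 FPKM in both libraries, and Hcn2 was below it in the control library alone. At these levels FPKM + 1 compresses a ratio, and without the pseudocount the fold differences were 1.19 for Hcn4 and 1.75 for Hcn2. The deposited table gives no reads behind either value, so an error cannot be attached to them.

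Hcn3, a paralogue of both, had 0.0549 FPKM in the Cre library and 0.438 FPKM in the control library. Its level was below those of Hcn4 and Hcn2 in each library.

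The L-type pores differed from each other. Cacna1c (NM_001159533, mm9 chromosome 6, 118542313 to 119171632), the Cav1.2 pore of working muscle and smooth muscle, had 11.7 FPKM in the Cre library and 2.93 FPKM in the control library. Its log2 ratio was 1.70, or 1.19 with tissue-list centring, and it was under the 2-fold rule at 0.92 with cardiomyocyte-list centring and 0.30 with centring on the long cardiomyocyte transcripts. Cacna1d (NM_001083616, mm9 chromosome 14, 30822185 to 31340242), the Cav1.3 pore that opens at more negative voltages and is needed for normal pacemaking, had 2.42 FPKM in the Cre library and 1.88 FPKM in the control library. Its log2 ratio was 0.25, or -0.53 with cardiomyocyte-list centring and -0.26 with tissue-list centring. There was thus 4.85 times as much Cacna1c as Cacna1d per length in the Cre library and 1.56 times as much in the control library. Both deposited loci also cover other genes: Dcp1b, at the Cacna1c locus, had 2.40 FPKM in the Cre library and 4.46 FPKM in the control library, and Chdh and Dcp1a, at the Cacna1d locus, likewise had lower FPKM with Cre, at a log2 ratio of -0.80 each. The labels do not state strand use in counting, so reads in overlapping stretches cannot be assigned with certainty.

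The T-type pores showed the same kind of split. Cacna1g (NM_001112813, mm9 chromosome 11, 94269704 to 94335512), the Cav3.1 pore that carries most of the T-type current of the mouse node, had 4.37 FPKM in the Cre library and 1.57 FPKM in the control library. Its log2 ratio of 1.06 stood just inside the 2-fold rule; it was 0.51 with a pseudocount of 5, 0.29 with cardiomyocyte-list centring and -0.33 with centring on the long cardiomyocyte transcripts. Cacna1h (NM_001163691, mm9 chromosome 17, 25507497 to 25570728), the Cav3.2 pore, had 1.23 FPKM in the Cre library and 1.15 FPKM in the control library. That is a log2 ratio of 0.05, or -0.72 with cardiomyocyte-list centring and -0.46 with tissue-list centring. Cacna1g stood at 3.55 times Cacna1h in the Cre library and at 1.37 times in the control library.

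Among all 7 voltage-gated calcium channel pores in the table, of which 5 had a mean of at least 1 FPKM and 2 of those were at least 2-fold higher, Cacna1c made up 53.7% of the summed FPKM in the Cre library and 29.9% in the control library. Cacna1g made up 20.0% and 16.0%, while Cacna1d made up 11.1% and 19.2%. The neuronal pore Cacna1e had 0.173 FPKM in the Cre library and 1.31 FPKM in the control library, and Cacna1a had 1.55 and 0.846 FPKM. Of the 6 auxiliary subunits whose mean reached 1 FPKM, 1 was at least 2-fold higher and 0 were lower, beside 6.07% and 10.4% of the 13419 genes with such a mean. The higher one was Cacna2d1, the main alpha2-delta subunit of heart muscle, at 13.8 FPKM in the Cre library and 5.56 FPKM in the control library. Cacnb2, the beta subunit that brings Cav1.2 to the membrane, had 9.54 and 4.53 FPKM, Cacng7 had 3.17 and 1.40 FPKM, and Cacna2d2 had 3.62 and 2.04 FPKM, all under the rule. The other two had lower values with Cre, also under the rule: Cacnb1 had 3.03 FPKM in the Cre library and 4.11 FPKM in the control library, and Cacnb3 had 4.92 and 7.04 FPKM.

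**Figure D2:**
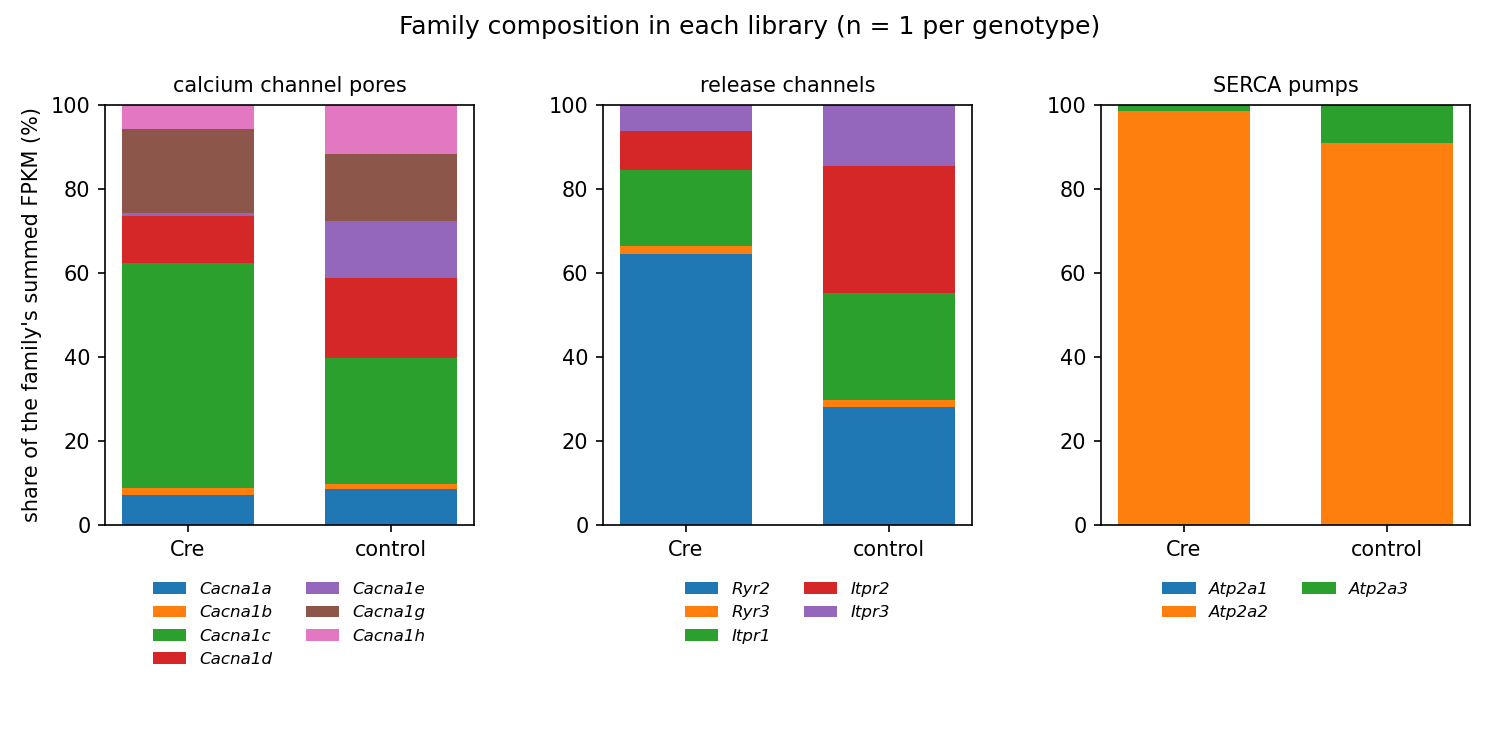
Share of each gene in the summed FPKM of its family (%), with the Cre library on the left and the control library on the right of each panel. Cacna1c takes 53.7% of the calcium channel pores in the Cre library and 29.9% in the control library, and Ryr2 takes 64.6% and 28.0% of the release channels.

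All 3 calcium cycle genes reached 2-fold higher with Cre before centring. Atp2a2 lost that call under each of the 3 centrings, and Ryr2 and Slc8a1 lost it with centring on the long cardiomyocyte transcripts. Ryr2 (NM_023868, mm9 chromosome 13, 11645369 to 12199212) had 67.0 FPKM in the Cre library and 18.0 FPKM in the control library. Its log2 ratio was 1.84. Slc8a1 (NM_001112798, mm9 chromosome 17, 81772444 to 82137717) had 24.4 FPKM in the Cre library and 6.09 FPKM in the control library. The log2 ratio was again 1.84. Both ranked among the highest ratios of the table, Slc8a1 at 103 and Ryr2 at 104 of 15965 genes, and both had a ratio of 1.06 with cardiomyocyte-list centring, 1.33 with tissue-list centring and 0.44 with centring on the long cardiomyocyte transcripts. Atp2a2 (NM_001110140, mm9 chromosome 5, 122903521 to 122952234) had 1289 FPKM in the Cre library and 528 FPKM in the control library. Its log2 ratio of 1.29 ranked at 419, and it was 0.51 with cardiomyocyte-list centring, 0.78 with tissue-list centring and -0.11 with centring on the long cardiomyocyte transcripts. In the authors' deposited table the p-value was 0.01385 for Slc8a1, 0.024 for Ryr2, 0.04535 for Cacna1c and 0.179 for Atp2a2.

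Ratios between pairs of the higher genes are given to describe proportions. Because both genes of a pair were higher with Cre, their ratio must differ by less than the more different gene does. Atp2a2 stood at 52.9 times Slc8a1 per length in the Cre library and at 86.7 times in the control library. Cacna1c stood at 0.175 times Ryr2 in the Cre library and at 0.163 times in the control library. The trigger channel and the release channel were thus higher in nearly the same proportion. Against Atp2a2, Cacna1c stood at 0.0091 times in the Cre library and at 0.0055 times in the control library.

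The paralogues of these genes had lower ratios. Of 6 calcium pumps and exchangers whose mean reached 1 FPKM, 2 (Atp2a2 and Slc8a1) were at least 2-fold higher and 1 was lower, and of 5 release channels 1 (Ryr2) was higher and 0 were lower. The shares over all genes with such a mean were 6.07% higher and 10.4% lower, and the higher genes of these small families are themselves among the 9. Atp2a3 (SERCA3), a pump found in blood cells and endothelium, had 18.3 FPKM in the Cre library and 53.0 FPKM in the control library, past 2-fold lower. Atp2a2 accordingly made up 98.6% of SERCA FPKM in the Cre library and 90.8% in the control library. Atp2a1, the fast skeletal muscle pump, had 0.403 and 0.379 FPKM. The plasma membrane pumps Atp2b1 and Atp2b4 had 18.7 and 11.9 FPKM in the Cre library and 15.8 and 7.999 FPKM in the control library, and Atp2b2 had 0.734 and 0.307 FPKM. Atp2c1, a calcium pump of the Golgi, had 17.2 and 17.0 FPKM. The exchangers Slc8a2 and Slc8a3 stayed at or below 0.204 FPKM in both libraries. Among release channels Ryr2 made up 64.6% of the sum in the Cre library and 28.0% in the control library. The inositol trisphosphate receptors Itpr2 and Itpr3 had 9.69 and 6.41 FPKM in the Cre library and 19.5 and 9.27 FPKM in the control library, below the 2-fold rule, while Itpr1 had 18.8 and 16.4 FPKM. Ryr3 had 1.79 FPKM in the Cre library and 1.10 FPKM in the control library.

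Partners of the sarcoplasmic reticulum were at least 2-fold higher in 2 of 13 genes and lower in 0, beside 6.07% and 10.4% of all genes with a mean of 1 FPKM or more, with a median log2 ratio of 0.63. Jph2, which holds the reticulum against the plasma membrane, had 39.2 FPKM in the Cre library and 13.9 FPKM in the control library. Srl (sarcalumenin), a calcium-binding protein of the reticulum, had 172 and 68.8 FPKM. Asph, whose transcripts include the reticulum protein junctin, had 95.5 FPKM in the Cre library and 51.4 FPKM in the control library. Pln (phospholamban), which inhibits Atp2a2, had 834 FPKM in the Cre library and 452 FPKM in the control library, so the ratio of Atp2a2 to Pln was 1.55 and 1.17. For Sln (sarcolipin), the inhibitor typical of atrial muscle, which had 2240 and 2580 FPKM, the ratio of Atp2a2 to it was 0.575 in the Cre library and 0.205 in the control library.

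Ratios and transcript lengths were set side by side because FPKM divides by length. Of the 9 genes 8 have transcripts over 4000 bases, and the highest ratios belonged to the longest, Slc8a1 at 18464 bases and Ryr2 at 16814 bases. Across the 9 genes Spearman's rho with the log2 ratio was 0.43 for length and 0.85 for mean FPKM. Cacna1h, at 8220 bases, and Cacna1g, at 8139 bases, had ratios of 0.05 and 1.06. Across the 20 cardiomyocyte genes rho for length was 0.69, and over all 15859 genes with a length it was 0.04. Genes are not independent replicates. The 10 longest cardiomyocyte transcripts (1473 to 100404 bases) had a median log2 ratio of 1.40, with 7 at least 2-fold higher. The 10 shortest (590 to 1200 bases) had a median of 0.37, with 0 higher. The long group thus includes transcripts shorter than those of all 9 genes and is not matched to them in length. Of 665 genes with transcripts of at least 8000 bases, 9.17% reached 2-fold higher with Cre, and 4 of the 5 pacemaker genes of that length were. Of 2851 genes with at least 4000 bases and a mean of at least 5 FPKM, 5.68% were higher, as were all 4 pacemaker genes in that range (Cacna1c, Ryr2, Slc8a1 and Atp2a2). The part of length or of expression level in these ratios was not tested.

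**Figure D3:**
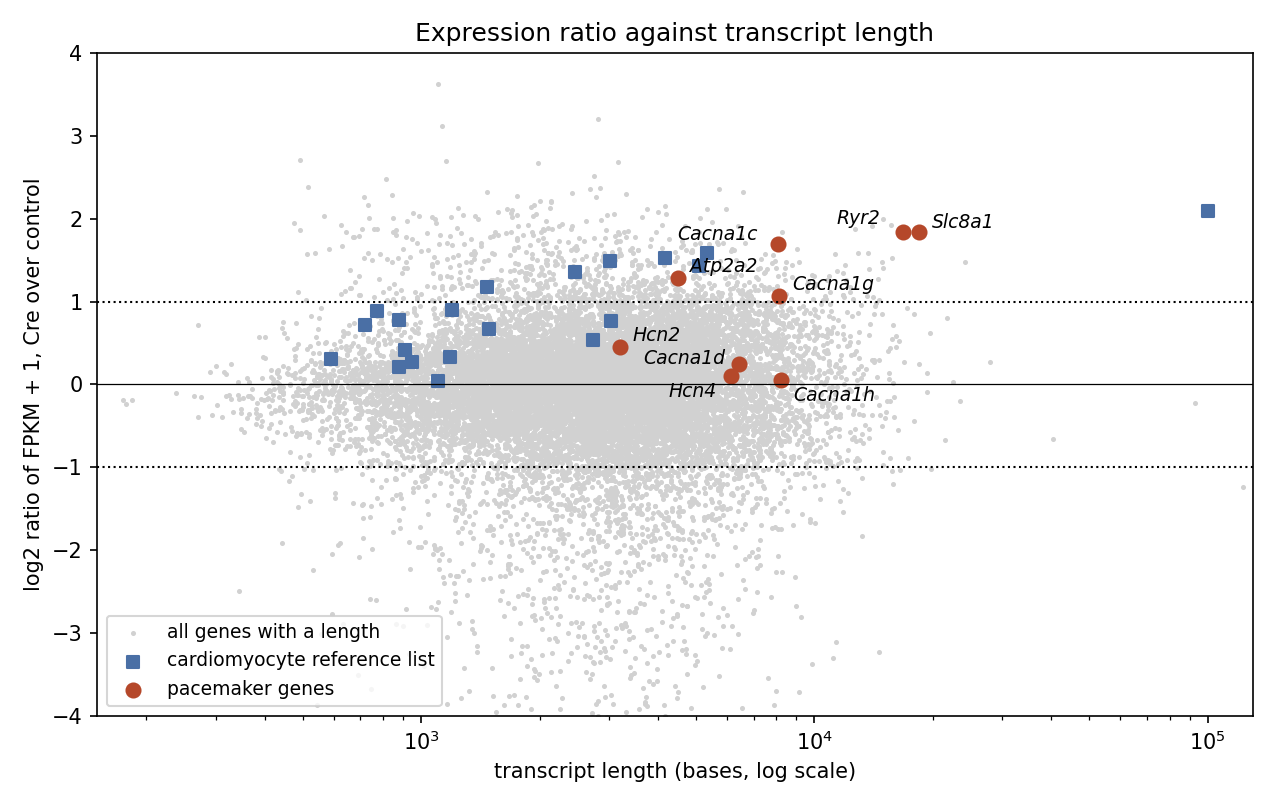
Log2 ratio of FPKM + 1 (Cre over control) against transcript length in bases on a log scale, for all genes with a length (grey), the 20 cardiomyocyte genes (squares) and the 9 pacemaker genes (circles, named); dotted lines mark 2-fold, and 114 genes beyond 4 log2 units and 22 with lengths beyond the axis are outside the plot. The squares run between 0.04 and 2.09 and are mostly higher at greater length, and Slc8a1, Ryr2, Cacna1c, Cacna1g and Atp2a2 lie above the upper dotted line at lengths of 4486 bases and more.

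Markers of other cells differed between the libraries as well. The floxed gene Arid1a had 12.3 FPKM in the Cre library and 34.9 FPKM in the control library, and the authors' deposited call for it was not significant. All 20 cardiomyocyte genes lay above equal expression in the Cre library (median 0.78), and their FPKM summed to 29496 in the Cre library and 20780.2 in the control library. Neuron genes, which mark cells that also express HCN and calcium channels, summed to 47.2 FPKM in the Cre library and 24.7 FPKM in the control library, with 3 of 10 at least 2-fold higher and Th and Chat at or below 0.223 FPKM in both. Smooth muscle and pericyte genes, where Cacna1c is also expressed, summed to 1410.0 and 830.1 FPKM, with 5 of 13 higher. T cell and thymus genes summed to 7.60 FPKM in the Cre library and 3124 FPKM in the control library (14 of 14 lower), cell cycle genes to 97.0 and 861 FPKM (11 of 11 lower), and lung and airway genes to 18652.5 and 4196 FPKM (11 of 11 higher). Fibroblast, endothelial and adipocyte genes summed to 2870, 583 and 6473 FPKM in the Cre library and 2244, 445 and 5320 FPKM in the control library, with 2 of 11, 0 of 11 and 1 of 9 higher. Red blood cell genes summed to 359 and 639 FPKM with none of 3 past the rule, and skeletal muscle genes to 31.4 and 20.0 FPKM with 2 of 5 higher and 1 lower. These counts stand beside 6.07% higher and 10.4% lower among all 13419 genes that averaged 1 FPKM or more. The sums, unlike the counts, take in every gene of a list that was found, also those under that mean. Xist had 93.2 FPKM in the Cre library and 0.379 FPKM in the control library, and the Y-linked Eif2s3y had 0.118 and 85.8 FPKM, so sex cannot be told apart from genotype. The part of these cells in the ratios above was not tested, and in such bulk samples more cells of a type and more RNA per cell cannot be told apart.

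Markers of the node reached at most 10.9 FPKM, the value of Bmp4 in the control library. Hcn4, Shox2 and Isl1 stayed at or below 2.02 FPKM in both libraries. Of 11 node markers 10 had a mean of at least 1 FPKM, with a median log2 ratio of 0.35; 1 (Cacna1g) was at least 2-fold higher and 0 were at least 2-fold lower, beside 6.07% and 10.4% of all genes with such a mean. All 11 summed to 46.0 FPKM in the Cre library and 32.8 FPKM in the control library, and Hcn4 alone stayed under 1 FPKM in both. Shox2, a transcription factor of the node, had 1.26 FPKM in the Cre library and 1.20 FPKM in the control library, and Tbx3, a repressor of working-muscle genes, had 2.59 and 0.996 FPKM. The highest of the list were Bmp4, a secreted growth factor, at 10.5 FPKM in the Cre library and 10.9 FPKM in the control library, Gjc1, the connexin 45 gene, at 8.87 and 4.61 FPKM, and Tbx18, a transcription factor of the node's precursors, at 7.03 and 4.83 FPKM. Myl7, the atrial light chain gene of working muscle, had 6940.2 and 5603 FPKM.

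The order of levels was alike in both libraries at the top. Atp2a2, Ryr2, Slc8a1 and Cacna1c were the first 4 in each. In the Cre library Cacna1g followed, ahead of Cacna1d, Hcn2, Cacna1h and Hcn4, whereas in the control library Cacna1d stood ahead of Cacna1g, and Cacna1h ahead of Hcn2. Without replicates, whether neighbours in this order differ beyond their spread cannot be said. Scaling to an equal upper quartile brought the all-gene median of the log2 ratios to 0.14, against -0.02 as deposited, and all 9 genes kept their side of the 2-fold rule under it and in TPM.

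**Figure D4:**
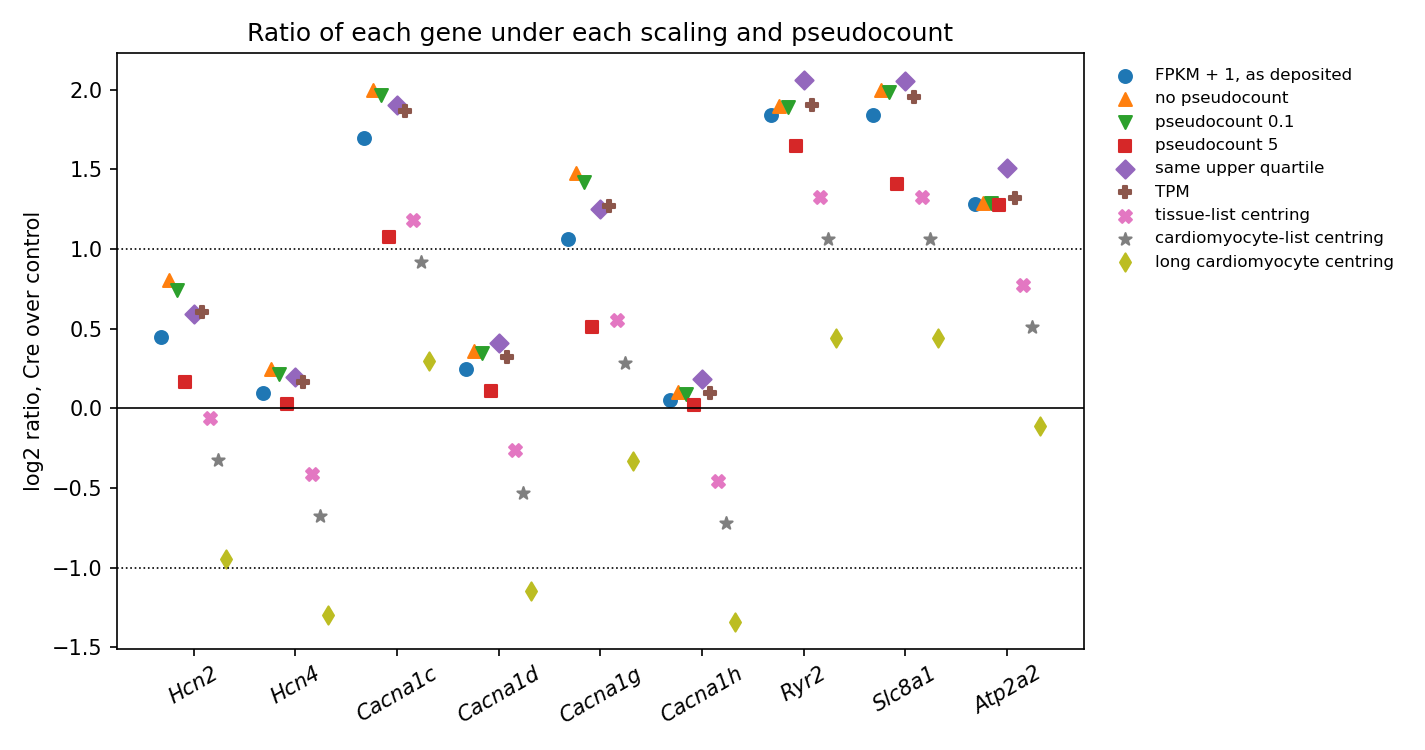
Log2 ratio (Cre over control) of each gene under 9 combinations of scaling, pseudocount and centring, with dotted lines at 2-fold. Without centring all ratios lie above 0. Centred on the long cardiomyocyte transcripts, Cacna1c, Ryr2 and Slc8a1 lie between 0.30 and 0.44 and the other 6 genes lie below 0. Hcn4, Cacna1d and Cacna1h are then past 2-fold lower, as are most of all genes, because that centring subtracts 1.40 from every ratio.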

How the data were processed

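Poly-A RNA from 1 Cre and 1 control library was sequenced by the authors. The submitters' processing notes name TopHat, Bowtie, Cufflinks and mm9, without versions; annotation and scaling are not stated. The deposited values were taken as FPKM from the Cufflinks-style columns, per the file headers. In the same rows the authors' deposited log2 fold change (Cre over control, within 1.38e-05 of the FPKM ratio), test score, p-value and q-value compare 2 libraries, not genotypes. Loci are printed as deposited.

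Of 15967 rows, 2 had no completed comparison and were left out, and 21 symbols turned into dates were restored by RefSeq accession. FPKM summed to 485189 in the Cre library and 497407 in the control library. Read depth is unknown: among 2546 genes under 1 FPKM the most frequent ratio was 0.824, in 26 genes, which gives no absolute count. No test was run. Ratios used a pseudocount of 1 FPKM and a 2-fold rule on that scale; weak genes were kept among the 9, and lists were counted at a mean of at least 1 FPKM. The genes named were all 9, their paralogues, up to 4 of each partner list by size of ratio, up to 2 of each marker list, and Arid1a; others were named after their values were seen. Transcript lengths came from GENCODE M21, by accession or else the longest of the symbol (99.3% of genes). The ratios and the 2-fold rule were tested on simulated data. The 9 genes and all lists were chosen with earlier results of these data known. A gene of these lists is not reported here. Python 3.11.15, pandas 2.3.3, NumPy 2.4.6 and matplotlib 3.10.9 were used.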

Additional observations from a re-analysis of the deposited data

How the results depend on the processing

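The pseudocount of 1 FPKM was replaced by 0.1, by 5 and, as an alternative chosen after seeing the data, by none; the libraries were set to the same upper quartile or to TPM; and ratios were centred on cardiomyocyte genes, on fibroblast, endothelial and adipocyte genes, or, also after seeing the data, on the 10 longest cardiomyocyte transcripts. Of 72 ratios of single genes, 49 kept their direction and their side of the 2-fold rule, 9 no longer passed it and 14 changed sign, all 14 under centring. The median log2 ratio of the 9 genes, 1.06, became 0.51 with a pseudocount of 5, 0.29 with cardiomyocyte-list centring, 0.55 with tissue-list centring and -0.33 with long cardiomyocyte centring. Those centrings left 2, 3 and 0 genes at least 2-fold higher, beside 0.802%, 1.58% and 0.0689% of all genes. The last made 3 at least 2-fold lower. The exact share of all genes lower under it was not computed. It subtracts 1.40 from every ratio, and the all-gene median was -0.02 before, so most of all genes are at least 2-fold lower under it. With cardiomyocyte-list centring the ratio was -0.33 for Hcn2, -0.68 for Hcn4, -0.53 for Cacna1d and -0.72 for Cacna1h, and with tissue-list centring -0.062, -0.41, -0.26 and -0.46. With long cardiomyocyte centring it was -0.95 for Hcn2, -1.30 for Hcn4, -1.15 for Cacna1d, -1.34 for Cacna1h, -0.33 for Cacna1g and -0.11 for Atp2a2. Centring subtracts 1 number from every ratio, so these changes follow from its construction. Of the 9 genes, those whose mean reached 1 or 5 FPKM gave 5 of 8 and 4 of 4 higher. Filtered at 1 FPKM in the same way, 6.07% of all genes were higher. From 5 FPKM upward the all-gene shares were 5.31% up to 20 FPKM, 3.24% up to 100 FPKM and 4.47% above that. With a pseudocount of 0.1, under which 11.3% of all genes were at least 2-fold higher, the auxiliary subunits had 3 higher genes instead of 1. The cyclic AMP list then had 4 higher instead of 3 and 2 lower instead of 1. The 11.3% has no filter on low values, unlike these counts, and the share of all genes lower at that pseudocount was not computed. Without a filter 1 auxiliary subunit (Cacna2d4) was lower, beside 8.95% of all genes. The other counts of the paralogue and partner lists were equal under both, and their medians kept their direction and their side of the rule. No paired analysis was possible because each genotype has 1 library, so no replicate could be left out either. Unknown read depth limits Hcn4, Hcn2 and Cacna1h most, since their values are near 1 FPKM.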

Other observations

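Cyclic AMP and calmodulin kinase signalling tunes both clocks through kinases that phosphorylate Ryr2, Pln and the L-type channel. Of 22 measured genes of this signalling 3 were at least 2-fold higher and 1 was lower, with a median log2 ratio of 0.37. The shares over the 13419 genes whose mean reached 1 FPKM were 6.07% and 10.4%. The list also holds cyclases, phosphodiesterases and exchange factors, to which all its genes past the rule belong. The phosphodiesterase genes Pde1c and Pde3a had 10.9 and 11.7 FPKM in the Cre library and 3.85 and 4.59 FPKM in the control library. Adcy5, a main adenylyl cyclase of heart muscle, had 14.9 FPKM in the Cre library and 5.97 FPKM in the control library. Rapgef3, a cyclic AMP-activated exchange factor, was the lower one, at 5.55 FPKM in the Cre library and 18.1 FPKM in the control library. Adcy1, a calcium-activated cyclase known from the node, had 3.29 and 2.08 FPKM, and Camk2d, the main calmodulin kinase of heart muscle, had 39.7 and 20.0 FPKM, a log2 ratio of 0.96; both were named after their values were seen. As with the ratios of the pacemaker genes, there was no replicate, and the cardiomyocyte list was higher in the same library.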
